A study of Homo sapiens with 4 samples.

Results

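The 36 genes described here encode aminoacyl-tRNA synthetases, 20 of them the cytosolic enzymes and 16 the mitochondrial ones. They were taken by gene symbol alone from the 59885 genes of a table that compares CFL1 knockout with control PANC-1 cells, and all 36 were found and had an adjusted p. PANC-1 is a human pancreatic ductal adenocarcinoma line, and the CFL1 protein, cofilin-1, cuts filaments of actin. PANC-1 cells with a CFL1 knockout gave 2 libraries, and PANC-1 cells labelled control gave 2 libraries. All 4 were total RNA extracted with Trizol, and the labels give no method of knockout, no clone and no construct for the controls. By its title, the series is about N6-methyladenosine on RNA of super-enhancers, its dependence on CFL1, and the transcription of oncogenes. The question put to the table here is whether mRNAs of the tRNA-charging enzymes differ between the knockout and the control cells.

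An aminoacyl-tRNA synthetase joins an amino acid to its tRNA, the step that sets which amino acid a codon stands for. In a synthetase symbol the first letter is the amino acid in the single-letter code, so SARS is seryl-tRNA synthetase, and a final 2 marks the mitochondrial enzyme, which is also made from a nuclear gene. GARS and KARS each supply both compartments from a single gene, EPRS charges both glutamate and proline, and phenylalanyl-tRNA synthetase is built from FARSA and FARSB. Several cytosolic enzymes sit in a multisynthetase complex on the scaffold proteins AIMP1, AIMP2 and EEF1E1. When amino acids run short, the kinase GCN2 (EIF2AK4) raises translation of the transcription factor ATF4, which is known to drive many cytosolic synthetase genes together with amino acid transporters and biosynthetic enzymes.

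The authors' deposited table holds no column for single libraries, so whole reads per library were recovered from its base means and fold changes. These came to 13609306 to 16142350 reads per library and are given below as normalized counts, that is, reads divided by the library's size factor. Which of the numbered samples is A and which is B is not known, so the letters only tell libraries of a group apart. Where 2 values of a group are given, library A comes before library B. The labels do not say whether libraries of a group are separate cultures, so p-values measure the spread among the sequenced libraries, possibly a technical one. CFL1 itself had 2285 and 2487 normalized counts in the knockouts, against 6276 and 13761 in the controls. It was lower in both knockouts but still read there, at 0.38 of control A on average, with a log2 fold change of -2.07 (SE 0.454) and a DESeq2 adjusted p of 0.00168 in the authors' deposited table.

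Control B was unlike the remaining 3 libraries. Across 17244 genes, Pearson's r of log2 normalized counts was 0.986 between the knockouts, 0.978 and 0.979 between knockout A or knockout B and control A, and 0.708 to 0.716 between control B and each other library. The controls were more than 2-fold apart for 44.3% of all genes tested, and for 11 of the 36 synthetases, 5 cytosolic and 6 mitochondrial. The knockouts were more than 2-fold apart for 0 of the 36. The epithelial keratins KRT8 and KRT18 were read in all libraries, with 8150 and 8049 normalized counts of KRT8 in the knockouts and 13713 and 29355 in the controls. KRT19 was at 0 in both knockouts, against 1.8 in control A and 2481 in control B. KRT7 had 4000 and 3683 in the knockouts, against 3551 in control A and 108 in control B. EPCAM, another epithelial marker, was low in all libraries, with 7.1 and 16.2 in the knockouts, against 6.4 and 42.5 in the controls. VIM, a mesenchymal marker, has no recovered reads. Its deposited log2 fold change was -1.81 (SE 0.847), and it was not called. Of 7 leukocyte, endothelial and fibroblast markers in the table, 6 and 4 had reads in the knockouts and 4 and 3 in the controls. Their summed level was 459 and 473 in the knockouts, against 542 in control A and 1225 in control B, of which 1217 in control B was CD68. LUM was at 0 in every library, PTPRC did not exceed 0.9, and PECAM1 was not analysed here. PDGFRB, a fibroblast marker, had 439 and 451 in the knockouts, against 513 in control A and 6.7 in control B. Both controls carry the PANC-1 label, and whether control B is the same line as the other libraries was not tested. Pooled fold changes set the knockouts against the average of these unlike controls. The part of these differences in any result on the synthetases was not tested, so each is given against both controls and against each control alone. In bulk RNA, fewer cells expressing a gene and less RNA per cell cannot be told apart.

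SARS was the only synthetase called at a DESeq2 adjusted p under 0.05, and it was higher in the knockouts. Of the 36 genes 1 rose and 0 fell by this rule, where the authors' deposited table calls 93 of 16629 genes, which is 0.559%, and calls 0.138% as rises. SARS (ENSG00000031698.12_2_SARS), which charges serine tRNA and also the selenocysteine tRNA with serine, had 3782 and 3189 normalized counts in the knockouts, against 1898 and 1963 in the controls. Its mean was 3485 ± 419 in the knockouts and 1930 ± 46.0 in the controls (SD, 2 libraries each). Both knockouts lay above both controls, and the controls, unlike those of many other synthetases, were close to each other. Its log2 fold change was 0.85 (SE 0.203), which is 1.81-fold, with a DESeq2 adjusted p of 0.00769 and a place of 12 among 16629 genes ordered by the Wald statistic in the authors' deposited table. The mean of the knockouts was 1.83 times control A and 1.77 times control B. No exon base of SARS overlaps another gene in GENCODE 29. The call rests on the authors' test, since limma on the recovered reads, with all 4 libraries, gave SARS an adjusted p of 0.722 and called 0 of all genes tested, 500 of them at an unadjusted p under 0.05.

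**Figure D1:**
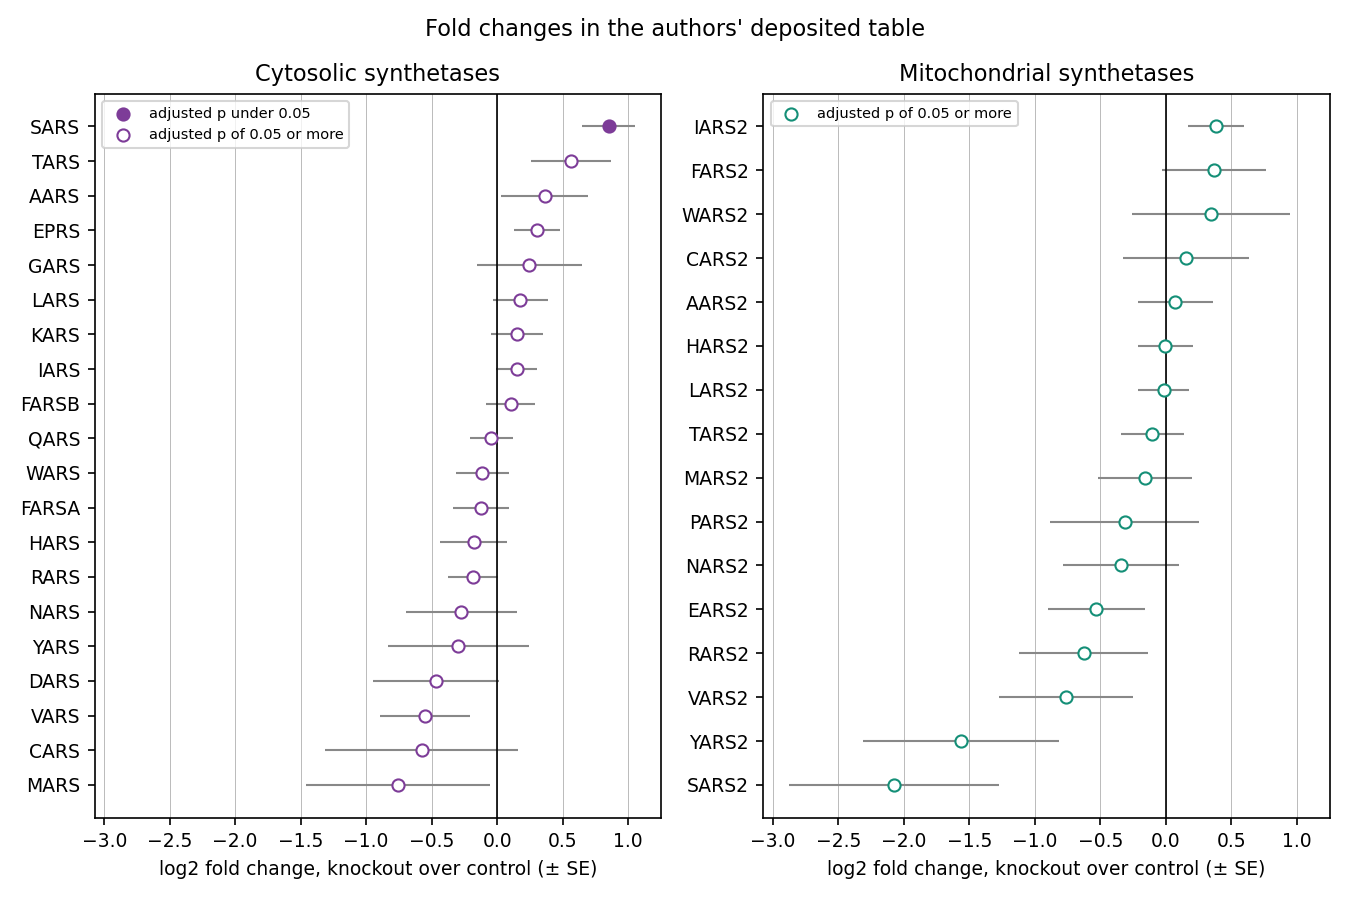
Log2 fold change of each synthetase, knockout over control, from the authors' deposited table, with its standard error as a bar, for the 20 cytosolic (left) and 16 mitochondrial (right) genes. Filled points have an adjusted p under 0.05, which SARS alone reached at 0.85, and the lowest values, for SARS2 at -2.07 and YARS2 at -1.56, have wide error bars.

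By the unadjusted p, the authors' deposited table has SARS as 1 higher synthetase and SARS2 and YARS2 as 2 lower ones under 0.05, where it gives 3.13% of all genes as higher and 9.49% as lower. These are the genes that the authors' deposited table itself marks as upregulated or downregulated, a mark that follows the unadjusted p. The median log2 fold change was -0.08 over the 20 cytosolic genes and -0.13 over the 16 mitochondrial genes, against -0.03 over all 16629 genes tested in the authors' deposited table. Fold changes above 0 were found for 9 of 20 cytosolic and 5 of 16 mitochondrial genes in the authors' deposited table. Both knockouts lay above both controls for 7 cytosolic and 2 mitochondrial genes, where 23.9% of all genes tested do. Both lay below both controls for 2 cytosolic and 4 mitochondrial genes, where 21.2% of all genes do. For the other 21 synthetases the groups overlapped, so that shares of separated genes over all 36 were near those of the transcriptome.

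Beside SARS, the cytosolic genes whose knockout values both exceeded both controls were TARS, EPRS, AARS, LARS, IARS and FARSB, none of them called. TARS, the threonyl enzyme, had 9735 and 9484 normalized counts in the knockouts, against 7860 and 5119 in the controls. Its controls differed more from each other than either knockout did from control A, and its log2 fold change was 0.57 (SE 0.307) with a DESeq2 adjusted p of 0.426 in the authors' deposited table. EPRS, the fused glutamyl-prolyl enzyme of the complex, had 9208 and 9566 in the knockouts, against 7183 and 8047 in the controls. The authors' deposited table gives EPRS a log2 fold change of 0.30 (SE 0.175), with a DESeq2 adjusted p of 0.461. AARS, the alanyl enzyme, had 4355 and 4178 in the knockouts, against 2524 and 4116 in the controls. Control B thus sat just under knockout B, and the authors' deposited table gives AARS a log2 fold change of 0.36 (SE 0.335, DESeq2 adjusted p 0.645). IARS, the isoleucyl enzyme and the most abundant cytosolic member by base mean, had 10386 and 10663 in the knockouts, against 9183 and 9798 in the controls. LARS, the leucyl enzyme, had 4918 and 4957 in the knockouts, against 3921 and 4808 in the controls, and FARSB, a subunit of the phenylalanyl enzyme, had 1688 and 1884 in the knockouts, against 1659 and 1662 in the controls. These 3 genes were separated by narrow margins. On the log2 scale, the authors' deposited table gives fold changes of 0.15 for IARS, 0.18 for LARS and 0.10 for FARSB. For IARS the SE was 0.158 and the DESeq2 adjusted p 0.683.

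VARS and RARS were the cytosolic genes below both controls. VARS, the valyl enzyme, had 2867 and 3126 normalized counts in the knockouts, against 3290 and 5488 in the controls. RARS, the arginyl enzyme, had 2428 and 2343 in the knockouts, against 2528 and 2905 in the controls. Control B was the higher control for both, and the authors' deposited table gives log2 fold changes of -0.55 (SE 0.347, DESeq2 adjusted p 0.496) for VARS and -0.19 (SE 0.191, DESeq2 adjusted p 0.675) for RARS.

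Set against each control alone, the cytosolic genes gave different pictures. For 15 of 20 cytosolic genes the knockout mean exceeded control A, with a median log2 difference of 0.25, and for 8 of 20 it exceeded control B, with a median of -0.19. All genes tested had medians of 0.01 against either control, and genes with base means from 1000 upward, where all cytosolic synthetases lie, had a median of -0.005 from control A and one of -0.15 from control B. In a limma fit without control B, which takes its spread from the knockouts alone and assumes that the lone control varies as they do, 10 of 20 cytosolic genes were higher at an unadjusted p under 0.05, and 0 were lower. In that fit 8.47% of all genes were higher and 5.75% lower, and among genes whose base mean reached 1000, as that of every cytosolic synthetase did, 14.0% were higher. None of these 10 held after adjustment over all genes, the lowest limma adjusted p among the synthetases being 0.261. The 10 were CARS, SARS, GARS, AARS, MARS, YARS, EPRS, LARS, NARS and TARS, with log2 differences of 0.29 for TARS to 0.99 for CARS.

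**Figure D2:**
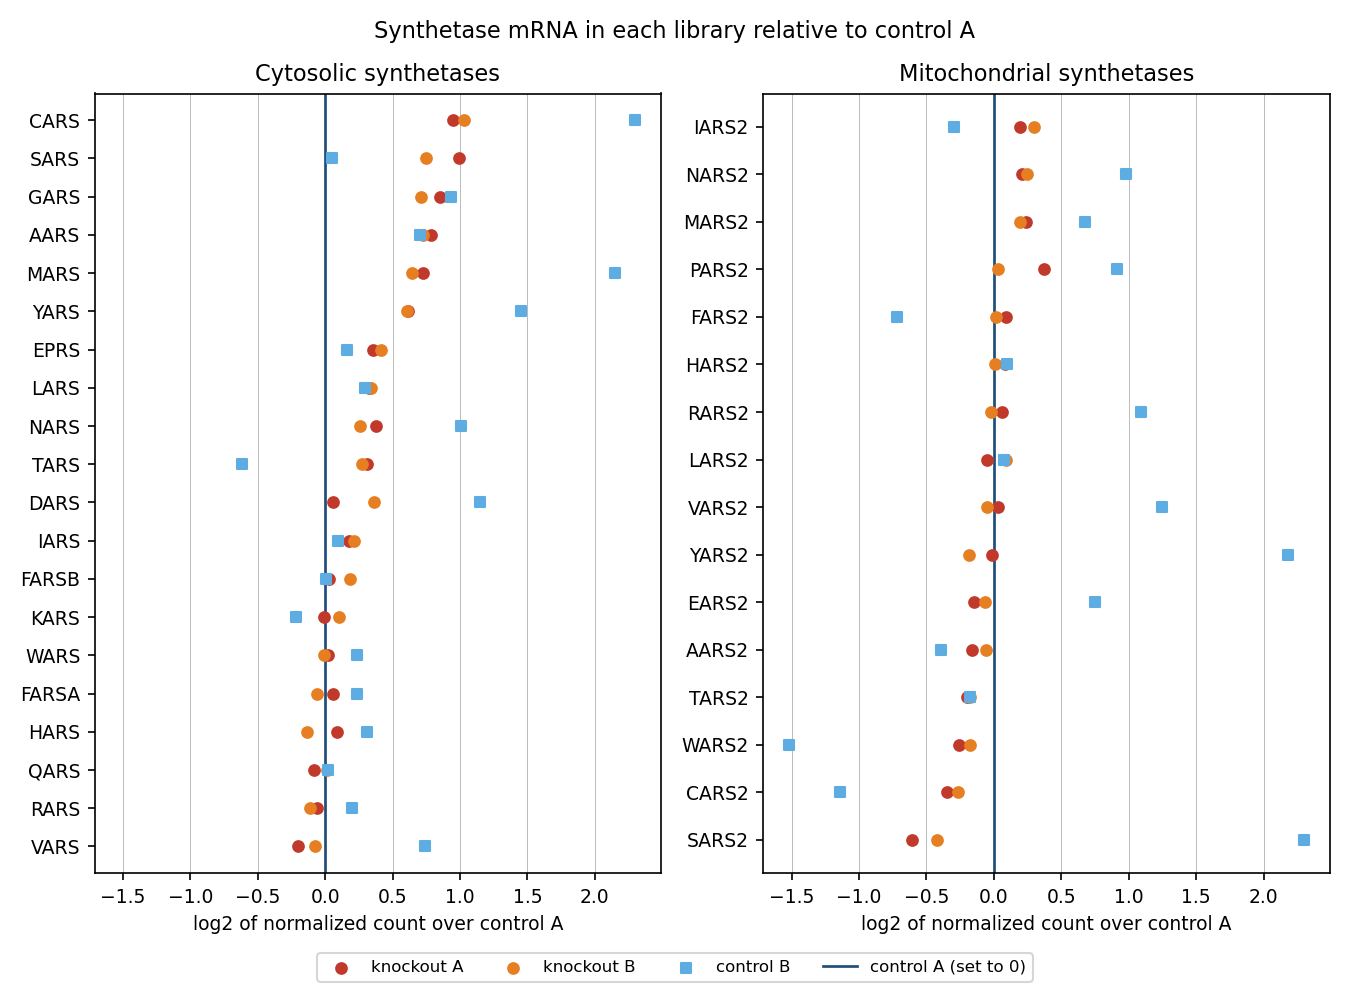
Normalized count of each synthetase in knockout A, knockout B and control B as a log2 ratio to control A, for the 20 cytosolic (left) and 16 mitochondrial (right) genes, ordered by the mean of the knockouts. The knockout points lie close together and run up to 0.99 above control A on average for CARS, while control B ranges on either side of them.

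Intermediate positions between the controls were held by 6 cytosolic genes. CARS, the cysteinyl enzyme, had 2190 and 2320 normalized counts in the knockouts, against 1135 in control A and 5591 in control B. MARS, the methionyl enzyme, had 3518 and 3328 in the knockouts, against 2131 in control A and 9431 in control B. YARS, the tyrosyl enzyme, had 2956 and 2945 in the knockouts, against 1936 in control A and 5308 in control B. For these 3 genes both knockouts lay above control A and below control B, so the sign of the difference turned with the control chosen. Against control A alone the log2 differences were 0.99 for CARS, 0.68 for MARS and 0.61 for YARS, and against control B alone they were -1.31 for CARS, -1.46 for MARS and -0.85 for YARS. NARS, the asparaginyl enzyme, had 3224 and 2972 in the knockouts, against 2485 in control A and 5006 in control B, and DARS, the aspartyl enzyme, had 962 and 1192 in the knockouts, against 925 in control A and 2048 in control B. GARS, the glycyl enzyme, had 6054 and 5491 in the knockouts, against 3348 in control A and 6390 in control B. All 6 of these genes stood above control A and below control B. Of 16563 genes tested with recovered reads, 2500 did so, and 2414 stood between the controls in the reverse order. In the authors' deposited table MARS had a log2 fold change of -0.76 (SE 0.701) and a DESeq2 adjusted p of 0.645. The standard error there was 0.738 for CARS, against 0.203 for SARS.

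The converse fit, without control A, set the knockouts against control B. In it 1 cytosolic gene, TARS, was higher and 4, MARS, CARS, YARS and VARS, were lower at a limma adjusted p under 0.05, and SARS missed it at 0.0882. Among mitochondrial genes 3 were higher, CARS2, WARS2 and FARS2, and 7 lower. That fit called 17.4% of all genes as higher and 16.4% as lower. It too takes its spread from the knockouts alone.

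**Figure D3:**
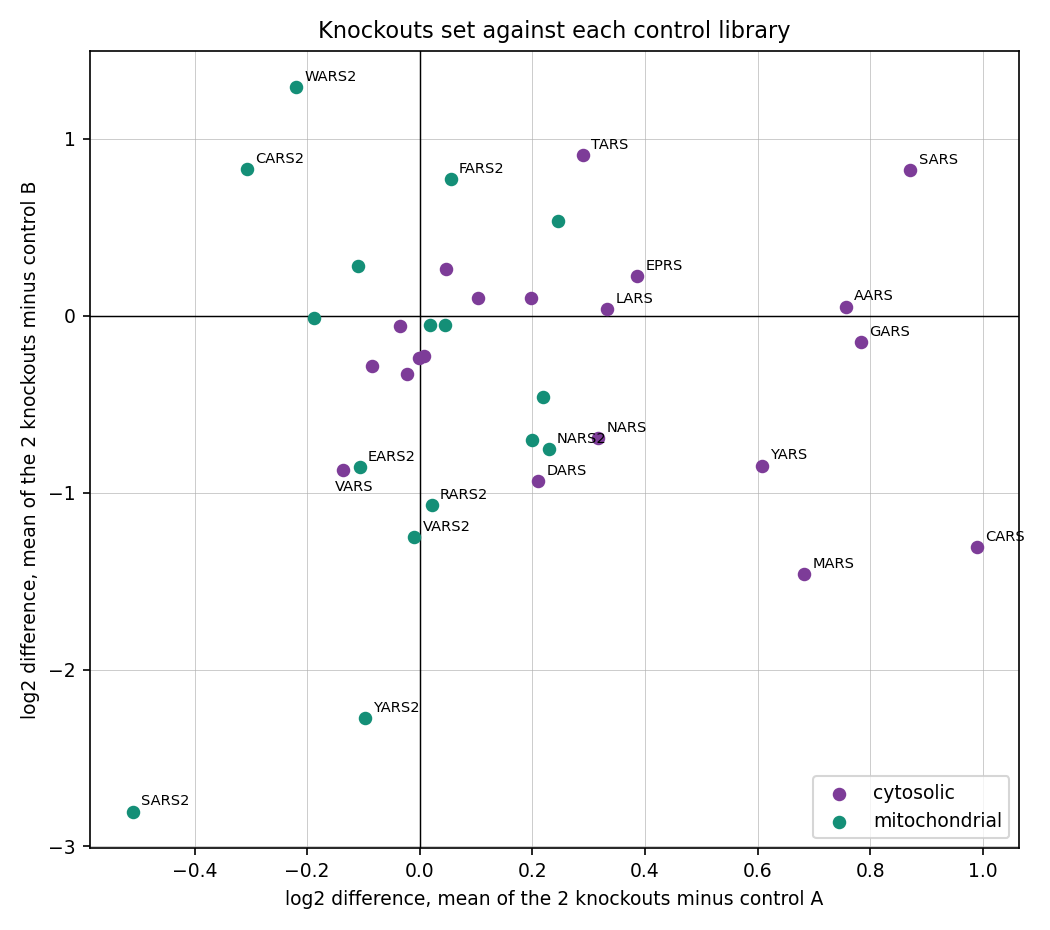
Log2 difference of the mean of the 2 knockouts from control A (horizontal) and from control B (vertical), 1 point per synthetase. Cytosolic genes extend to the right, up to 0.99, at vertical values of -1.46 to 0.91, while mitochondrial genes stay between -0.51 and 0.25 on the horizontal axis and spread from -2.80 to 1.29 on the vertical one.

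The remaining cytosolic genes differed little in any library. QARS, the glutaminyl enzyme, had 2537 and 2710 normalized counts in the knockouts, against 2686 and 2728 in the controls. KARS, the lysyl enzyme, had 3029 and 3268 in the knockouts, against 3045 and 2623 in the controls. WARS, the tryptophanyl enzyme, had 1856 and 1816 in the knockouts, against 1826 and 2146 in the controls. In all 3 the groups overlapped, and so they did for HARS, the histidyl enzyme, with 1082 and 925 in the knockouts, against 1017 and 1259 in the controls. FARSA had 1350 and 1246 in the knockouts, against 1298 and 1529 in the controls. The ratio of FARSB to FARSA, both as normalized counts per kilobase of transcript, was 0.673 and 0.814 in the knockouts, against 0.688 and 0.585 in the controls, and the groups overlapped.

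By place in the cell, the 8 cytosolic enzymes of the multisynthetase complex had 0 calls and a median log2 fold change of 0.05, and the 12 outside it had 1 call, SARS, and a median of -0.12, in the authors' deposited table. Against control A alone the median log2 difference was 0.20 over the 8 complex enzymes and 0.30 over the 12 others. Against control B alone the medians were -0.01 and -0.23. By fold of the catalytic domain, the 9 class I enzymes had a median of -0.19 and the 10 class II subunits one of 0.13 in the authors' deposited table, which sets EPRS, with a domain of each class, aside. The scaffold genes were not called. AIMP1 had 495 and 485 normalized counts in the knockouts, against 431 and 410 in the controls. AIMP2 had 794 and 641 in the knockouts, against 696 and 905 in the controls, and EEF1E1 had 444 and 617 in the knockouts, against 632 and 630 in the controls. Both knockouts were thus above both controls for AIMP1 and below both for EEF1E1, and the authors' deposited table gives DESeq2 adjusted p of 0.668 for AIMP1 and 0.713 for EEF1E1.

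Of the cytosolic genes 13 are known as targets of ATF4. The knockout mean exceeded control A for 12 of these 13 and for 3 of the 7 others. It exceeded control B for 6 of the 13 and 2 of the 7. Among genes with base means of at least 1000, it exceeded control A for 2118 and fell below it for 2174. The 13 were the more abundant, with a median base mean of 3793.4, against 1723.1 for the 7. The median log2 difference from control A was 0.39 over the 13 and 0.00 over the other 7. Against control B the medians were -0.15 and -0.24. The authors' deposited table has medians of 0.15 over the 13 and -0.12 over the 7. The lowest log2 differences from control A among the 13 were 0.20 for IARS, -0.14 for VARS and 0.01 for WARS.

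Promoters of these genes can be read for the letters TGATGNAA, the core of the CCAAT enhancer-binding protein and ATF response element through which ATF4 acts. The RefSeq promoters (GRCh38.p14, 250 bases before to 50 after an annotated start, both strands searched, N standing for any base) held it in 4.46% of 27305 genes, or in 3.62% of 35116 start sites. It was held by 7 of the 16 cytosolic genes matched to a promoter, against 1 of 14 mitochondrial genes. All 7 were on the list of ATF4 targets, of which 10 had a promoter, and 0 of 6 cytosolic genes off the list held it. Promoters of DARS, LARS, VARS, YARS, AARS2 and VARS2 were not matched. The windows below are shown because they hold the matched letters, each 5′ to 3′ on the strand named, with the matched letters in capitals, and ASNS and CHAC1 are added as the 2 holders of the letters among 9 companion genes searched, the other 7 being PHGDH, TRIB3, DDIT3, ATF4, SESN2, PSAT1 and XPOT.
AARS (chr16:70289675-70289704, plus strand): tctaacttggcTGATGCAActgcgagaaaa
CARS (chr11:3057407-3057436, plus strand): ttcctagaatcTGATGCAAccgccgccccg
GARS (chr7:30594834-30594863, minus strand): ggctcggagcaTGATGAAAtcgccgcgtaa
IARS (chr9:92293692-92293721, plus strand): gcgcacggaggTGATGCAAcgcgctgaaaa
MARS (chr12:57488053-57488082, minus strand): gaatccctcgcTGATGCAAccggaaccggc
NARS (chr18:57621804-57621833, minus strand): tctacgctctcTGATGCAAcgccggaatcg
TARS (chr5:33440956-33440985, minus strand): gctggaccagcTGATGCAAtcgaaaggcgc
YARS2 (chr12:32756076-32756105, minus strand): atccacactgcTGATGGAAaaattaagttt
ASNS (chr7:97872458-97872487, minus strand): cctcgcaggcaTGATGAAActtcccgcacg
CHAC1 (chr15:40953251-40953280, minus strand): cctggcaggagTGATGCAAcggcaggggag
SARS, the called gene, and EPRS, QARS, KARS, RARS, HARS, WARS, FARSA and FARSB had no match, which says only that these letters are not in those windows. The 7 cytosolic holders had log2 differences from control A of 0.20 for IARS to 0.99 for CARS. Of the cytosolic genes without a match, SARS had 0.87 and EPRS 0.39, and the rest -0.08 for RARS to 0.10 for FARSB. Against control B the holders ran from -1.46 for MARS to 0.91 for TARS. Those without a match ran from -0.33 for HARS to 0.82 for SARS. A relation between the letters and these differences was not tested. A match describes the sequence and does not show that a factor binds there.

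The other genes of the amino acid stress pathway were read from a list of 21. Of these, 3 rose and 0 fell at a DESeq2 adjusted p under 0.05 in the authors' deposited table. That table calls 0.138% of all genes as rises. All 3 had both knockouts above both controls. PHGDH, the first enzyme of serine synthesis, had 5928 and 5546 normalized counts in the knockouts, against 2627 and 2429 in the controls, with a log2 fold change of 1.18 (SE 0.172) and a DESeq2 adjusted p of 1.01e-07 in the authors' deposited table. NUPR1, a stress-induced nuclear protein, had 650 and 432 in the knockouts, against 185 and 191 in the controls, with a log2 fold change of 1.52 (SE 0.360) and a DESeq2 adjusted p of 0.00692 in the authors' deposited table. GPT2, the mitochondrial alanine transaminase, had 916 and 894 in the knockouts, against 462 and 330 in the controls, with a log2 fold change of 1.19 (SE 0.297) and a DESeq2 adjusted p of 0.0145 in the authors' deposited table. The controls were near each other for PHGDH and NUPR1, as for SARS, and farther apart for GPT2. By the unadjusted p, 7 genes of the list were higher and 2, MTHFD2 and EIF2AK3, lower under 0.05 in the authors' deposited table. Over all genes it gives 3.13% as higher and 9.49% as lower, and 2 of 21 is near the latter share. PSAT1 and PSPH, the next enzymes of serine synthesis, had log2 fold changes of 0.28 and 0.53 and DESeq2 adjusted p of 0.542 and 0.406 in the authors' deposited table, with both knockouts above both controls for each. MTHFD2, a mitochondrial enzyme of folate metabolism, lay below both controls, with 3587 and 4081 in the knockouts, against 4534 and 9375 in the controls, and the authors' deposited table gives it a log2 fold change of -0.86 (SE 0.434, DESeq2 adjusted p 0.390).

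ATF4 itself had 5749 and 4951 normalized counts in the knockouts, against 1840 in control A and 4431 in control B. Both knockouts were above both controls, control B by less, and the DESeq2 adjusted p was 0.503 in the authors' deposited table. ASNS, asparagine synthetase, had 3428 and 3464 in the knockouts, against 955 in control A and 4343 in control B. CHAC1, which degrades glutathione, had 104 and 78.7 in the knockouts, against 23.6 in control A and 459 in control B. TRIB3, an ATF4-induced pseudokinase, had 1163 and 1035 in the knockouts, against 511 in control A and 2092 in control B. ASNS, CHAC1 and TRIB3 thus stood between the controls, as CARS, MARS and YARS did. DDIT3, which encodes the transcription factor CHOP, had 218 and 221 in the knockouts, against 114 in control A and 725 in control B. Exons of DDIT3 and other genes overlap 13.3% of the exon bases of MARS, and the sources used here do not say whether reads were counted by strand. Against control A alone, 16 of the 20 genes of the list with recovered reads were higher at an unadjusted p under 0.05 by limma and 1, EIF2AK3, was lower, where 8.47% of all genes were higher and 5.75% lower. The median log2 difference over the 20 was 0.79 from control A and 0.22 from control B. Both knockouts lay above both controls for 10 of the 20 and below both for 2, against 23.9% and 21.2% of all genes tested. For 6 of the 20, ASNS, CHAC1, TRIB3 and DDIT3 among them, the knockouts stood above control A and below control B.

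**Figure D4:**
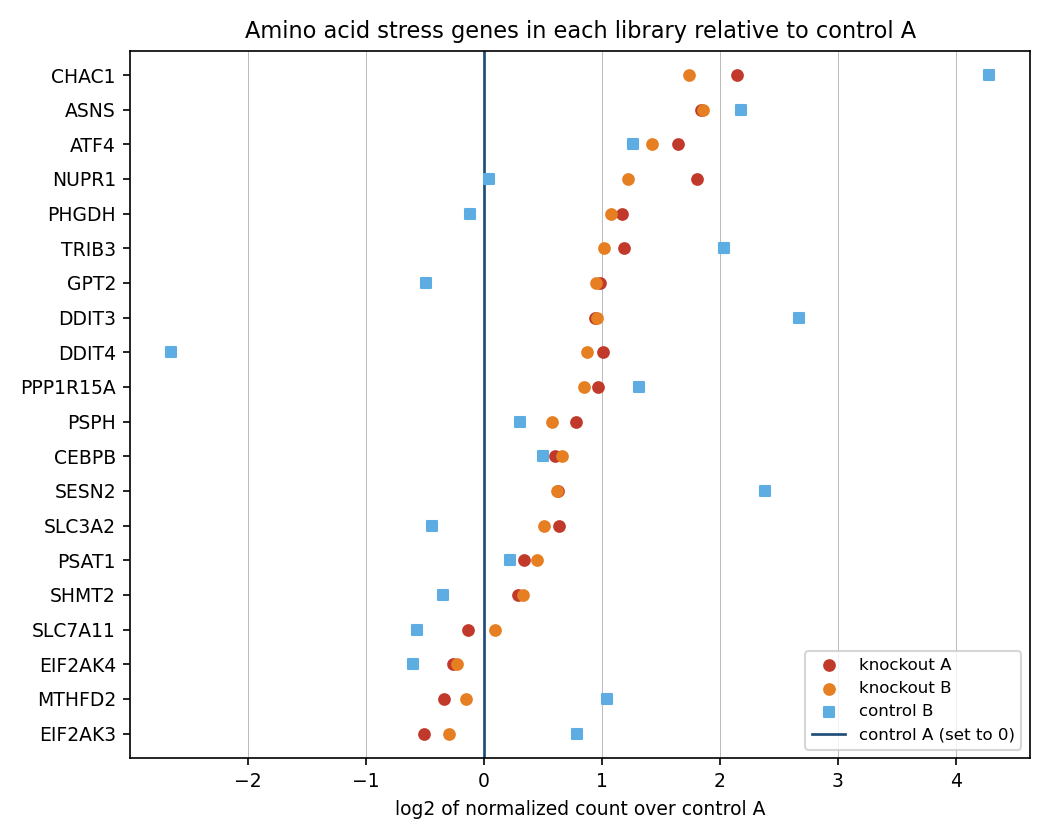
Normalized count of 20 amino acid stress genes in knockout A, knockout B and control B as a log2 ratio to control A, ordered by the mean of the knockouts. The knockouts lie together to the right of control A for most genes, at 1.85 for ASNS on average, and control B lies beyond them for CHAC1, ASNS, TRIB3, DDIT3, PPP1R15A and SESN2 and to their left for PHGDH, NUPR1, GPT2 and DDIT4.

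The mitochondrial synthetases had 0 calls, and most of their knockout values lay close to control A. Their median log2 difference from control A was 0.00, and it was -0.26 from control B. The knockout mean exceeded control A for 8 of the 16 and fell below it for 8, where it did so for 8322 and 8013 of all genes tested. These log2 differences ran from -0.51 for SARS2 to 0.25 for IARS2. SARS2, the mitochondrial seryl enzyme, had 137 and 156 normalized counts in the knockouts, against 209 in control A and 1028 in control B. Both knockouts were below both controls, and the authors' deposited table gives SARS2 a fold change of -2.07 on the log2 scale (SE 0.80, DESeq2 adjusted p 0.235). The log2 difference of the knockouts was -0.51 from control A and -2.80 from control B. Of the 31-base words of SARS2, 72.2% also occur in an overlapping readthrough gene, so its reads are uncertain. YARS2, the mitochondrial tyrosyl enzyme, had 322 and 287 in the knockouts, against 325 in control A and 1475 in control B. The authors' deposited table gives YARS2 a fold change of -1.56 on the log2 scale (SE 0.748, DESeq2 adjusted p 0.366). From control A alone the knockouts differed by -0.10, and from control B alone by -2.28.

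EARS2, RARS2 and VARS2 followed the same outline, with control B alone far off. EARS2, the glutamyl enzyme, had 702 and 745 normalized counts in the knockouts, against 779 in control A and 1310 in control B. RARS2, the arginyl enzyme, had 331 and 313 in the knockouts, against 317 in control A and 677 in control B. VARS2, the valyl enzyme, had 524 and 496 in the knockouts, against 513 in control A and 1216 in control B. The differences of these 3 from control A were -0.11, 0.02 and -0.01 on the log2 scale. Exons of GTF2H4 overlap 22.0% of the exon bases of VARS2. NARS2, with 537 and 550 in the knockouts, against 464 in control A and 915 in control B, and MARS2, with 535 and 519 in the knockouts, against 453 in control A and 724 in control B, stood between the controls.

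Control B was the lowest library instead for 5 mitochondrial genes, CARS2, WARS2, FARS2, AARS2 and IARS2. CARS2, the cysteinyl enzyme, had 743 and 788 normalized counts in the knockouts, against 947 in control A and 430 in control B. WARS2, the tryptophanyl enzyme, had 430 and 455 in the knockouts, against 515 in control A and 180 in control B. FARS2, the phenylalanyl enzyme, had 369 and 350 in the knockouts, against 346 in control A and 210 in control B. For CARS2, WARS2 and AARS2 the knockouts stood between the controls, and for FARS2 above both, with a DESeq2 adjusted p of 0.689 for FARS2 in the authors' deposited table.

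IARS2, the isoleucyl enzyme and the most abundant mitochondrial member, was the other mitochondrial gene above both controls. It had 5791 and 6203 normalized counts in the knockouts, against 5058 and 4127 in the controls, with a log2 fold change of 0.38 (SE 0.215) and a DESeq2 adjusted p of 0.443 in the authors' deposited table. LARS2 had 1007 and 1114 in the knockouts, against 1045 and 1099 in the controls, and HARS2 had 662 and 629 in the knockouts, against 625 and 668 in the controls. TARS2 had 410.0 and 415 in the knockouts, against 470 and 416 in the controls. The leucyl, histidyl and threonyl enzymes of mitochondria were thus level across libraries, with TARS2 below both controls by a margin of under 1 normalized count at its nearest. AARS2 had 481 and 519 in the knockouts, against 539 and 410 in the controls. PARS2, the prolyl enzyme, had 93.0 and 73.3 in the knockouts, against 71.8 and 135 in the controls.

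Cytosolic transcripts were the more abundant of the pair for nearly every amino acid. Per kilobase of transcript, the median cytosolic level was 1040 and 1000 normalized counts in the knockouts, against 782 and 1190 in the controls, and the median mitochondrial level was 177 and 172 in the knockouts, against 179 and 253 in the controls. Each of the 16 mitochondrial genes was set against the cytosolic gene for the same amino acid, with EPRS as partner of both EARS2 and PARS2 and FARSA as partner of FARS2. The cytosolic level per kilobase was the higher in all 4 libraries for 15 of 16 pairs. The exception was CARS over CARS2, at 2.01 and 2.0 in the knockouts, against 0.817 in control A and 8.85 in control B. EPRS over PARS2 was the widest pair in every library, at 46.4 and 61.1 in the knockouts, against 46.8 and 27.9 in the controls, and IARS over IARS2 was among the narrowest, at 1.37 and 1.31 in the knockouts, against 1.39 and 1.82 in the controls. SARS over SARS2 was 30.6 and 22.6 in the knockouts, against 10.1 and 2.12 in the controls, so that both knockouts lay above both controls.

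**Figure D5:**
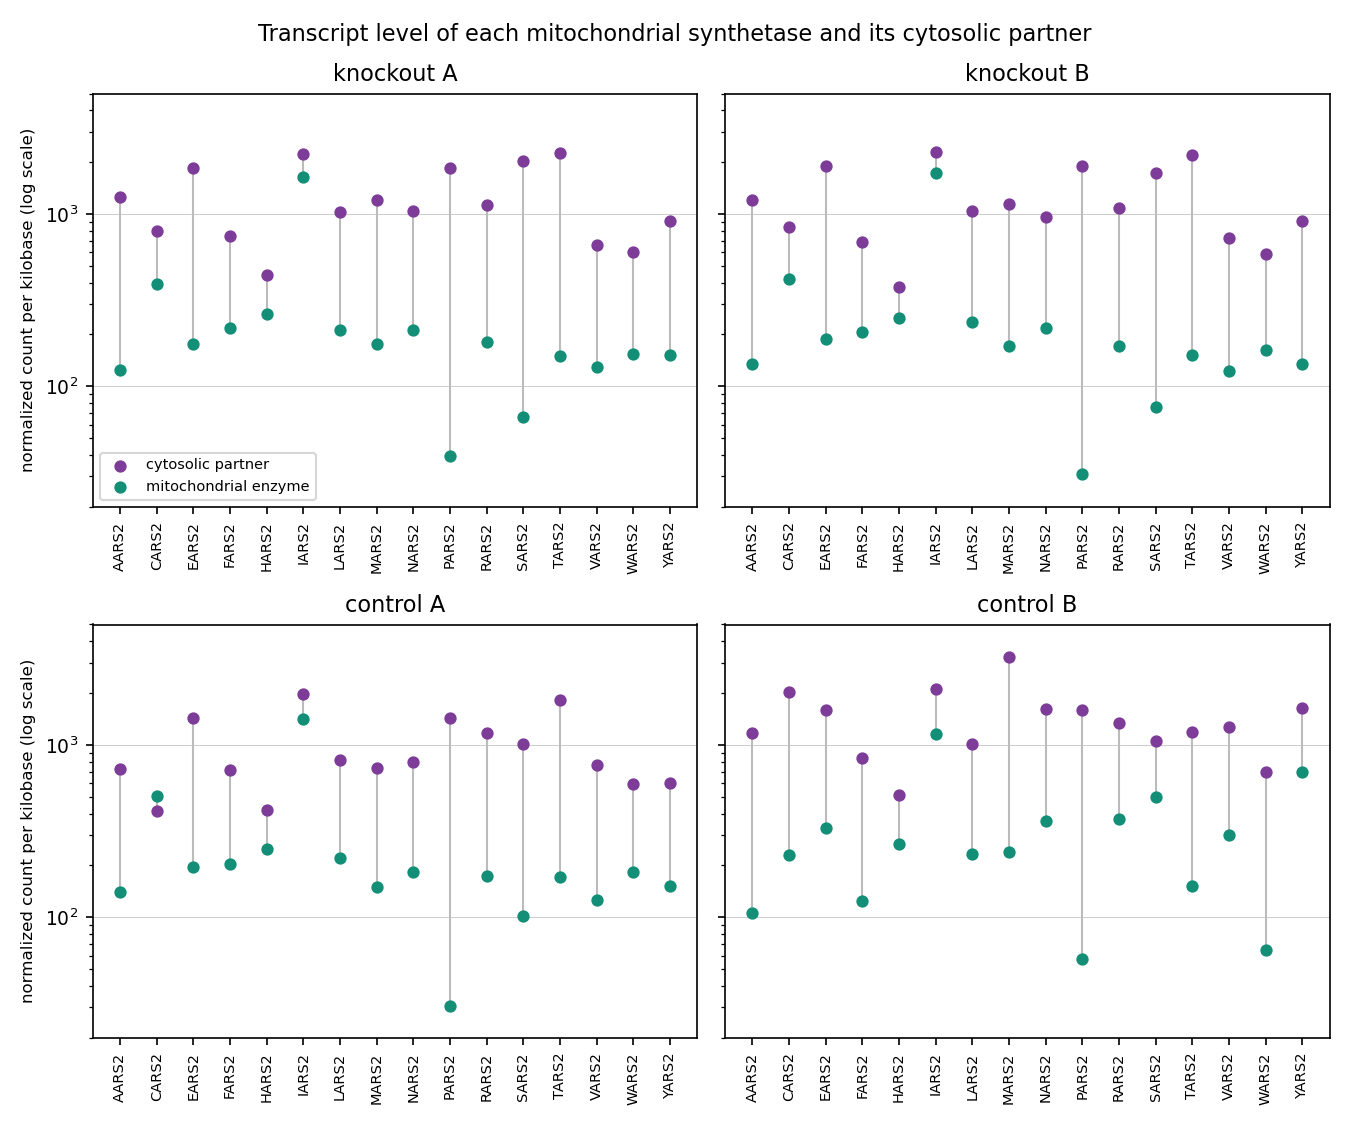
Normalized counts per kilobase of transcript, on a log axis, of each mitochondrial synthetase and of its cytosolic partner, joined by a line, in each of the 4 libraries. The cytosolic point is the upper one in all pairs except CARS and CARS2 in control A, and PARS2 is the lowest point in every library, at 39.6 and 31.2 in the knockouts and 30.6 and 57.6 in the controls.

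Summed over the 20 cytosolic genes the libraries held 78124 and 77603 normalized counts in the knockouts, against 61876 in control A and 87965 in control B. Over the 16 mitochondrial genes the sums were 13074 and 13612 in the knockouts, against 12677 in control A and 15022 in control B. In both compartments the knockouts stood between the controls. The cytosolic median fold change exceeded the mitochondrial one by 0.05 on the log2 scale in the authors' deposited table, less than the pooled SD of that difference between libraries of a group, 0.16. Against control A alone the difference between the medians was 0.25, and against control B alone 0.07. Within the 16 pairs the cytosolic gene had the higher fold change in 10 and the mitochondrial one in 6, with a median difference of 0.20, in the authors' deposited table. Against control A alone the split was 11 to 5 with a median of 0.27, and against control B alone 9 to 7 with a median of 0.07. The comparisons with control A and with control B share the knockouts, and no test was made over the pairs. The serine pair was the farthest apart, with log2 fold changes of 0.85 for SARS and -2.07 for SARS2 in the authors' deposited table.

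Partners of the synthetases in charging, proofreading and export of tRNA gave 0 calls among 11 genes. QRSL1, which with GATB and GATC makes mitochondrial glutaminyl-tRNA in place of a mitochondrial QARS, had 352 and 357 normalized counts in the knockouts, against 368 in control A and 847 in control B. DTD1, a deacylase that removes D-amino acids from tRNA, had 292 and 285 in the knockouts, against 312 and 471 in the controls. SEPSECS, which makes selenocysteine on the tRNA that SARS has charged with serine, had 386 and 424 in the knockouts, against 369 and 274 in the controls. QRSL1 and DTD1 were below and SEPSECS above both controls, with DESeq2 adjusted p of 0.516, 0.609 and 0.653 in the authors' deposited table. The elongation factors, which carry charged tRNA to the ribosome and move it on, had 0 calls of 6 in the cytosolic list and 0 of 4 in the mitochondrial one. EEF1D, an exchange factor subunit, had 4209 and 3879 in the knockouts, against 3284 and 2870 in the controls, and GFM1, a mitochondrial elongation factor, had 1816 and 2136 in the knockouts, against 2507 and 2792 in the controls. Both knockouts were above both controls for EEF1D and below both for GFM1, with DESeq2 adjusted p of 0.378 and 0.390 in the authors' deposited table.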

How the data were processed

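Members, lists and tests were chosen with earlier results of these data known. Per the submitters' processing notes the tools were cutadapt, FastQC, STAR and RSEM on hg19, with no versions, so counts may be rounded RSEM estimates. The deposited table is the authors' DESeq2 result. The base mean is a signal: per the file headers it averages counts, each divided by its library's size factor, over the 4 libraries. Its log2 fold change and standard error are on the log2 scale, its Wald score is their ratio, and its p-value columns are the unadjusted and Benjamini-Hochberg adjusted p, as deposited.

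After the data were seen, whole reads per library were recovered. A base mean printed to 15 digits is a sum of whole reads times 4 steps. Of several solutions, the 1 kept had to return the deposited fold change within 0.0001 log2, or 0.001 below a base mean of 150. A lone solution was kept even without that match. The recovery gave 30765 of 30831 genes (99.8%), including all 36 synthetases. At base means from 10 to 20000, 17244 genes were recovered, and 16936 returned the fold change within 0.0001. The 47 genes at base means of at least 20000, among them SLC7A5, EEF1A1, EEF2 and VIM, were not attempted. On the reads, limma 3.58.1 (R 4.3.3), with a trended prior, took log2(normalized count + 1), a scale that understates changes of low genes, of genes averaging 1 or more. The alternatives tried were voom, scaling by total recovered reads, a pseudocount of 0.1, means of 10 or more, and leaving out each library. Levels per kilobase used a protein-coding transcript of each gene in GENCODE 29, the longest among those marked principal, where any was so marked. Described in full are the called member, the 6 cytosolic and 4 mitochondrial members with the largest Wald statistic, and the most abundant of each. Called list genes, or up to 3 per list, are also described, and the other members' values were added to account for all 36. ATF4, ASNS, CHAC1, TRIB3, DDIT3 and MTHFD2 were given outside this rule. SLC7A5, SLC3A2 and DDIT4 had larger absolute Wald statistics than these, but the text gives no values by library for them. Python 3.11.15, numpy 2.4.6, pandas 2.3.3, scipy 1.17.1 and matplotlib 3.10.9 were used.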

Additional observations from a re-analysis of the deposited data

How the results depend on the processing

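The count of 1 called synthetase held with no independent filtering, at base means of at least 10 or 100 and at an adjusted p under 0.01, and was 3 at an unadjusted p under 0.05. On the recovered reads limma called 0 with a pseudocount of 1 or 0.1, with voom and with scaling by each library's total of recovered reads. That scaling was added after seeing the data, and its totals leave out the 47 genes at base means of at least 20000. Leaving out a library gave 0 to 15 calls, 15 without control A and 0 without any other. SARS kept its direction throughout, at log2 0.72 to 0.98, but its limma adjusted p was 0.0882 to 1 and the call was lost each time; limma called 0 of all genes with all 4 libraries. The difference between the compartment medians was 0.031 to 0.246 when leaving out a library, highest without control B. Companion calls numbered 12 at an unadjusted p under 0.05.

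Directions of uncalled members turned. Scaling by totals moved the median of all genes to 0.133, against -0.003 with size factors, and gave 0.017 for FARSA, 0.091 for QARS, 0.028 for WARS, 0.017 for YARS, 0.13 for HARS2, 0.12 for LARS2, 0.016 for MARS2 and 0.037 for TARS2. Leaving out a library gave, from lowest to highest, -1.31 to 0.99 for CARS, -0.94 to 0.21 for DARS, -0.15 to 0.78 for GARS, -1.46 to 0.68 for MARS, -0.69 to 0.32 for NARS, -0.094 to 0.002 for QARS, -0.23 to 0.008 for WARS, -0.85 to 0.61 for YARS, -0.11 to 0.28 for AARS2, -0.31 to 0.83 for CARS2, -0.051 to 0.045 for HARS2, -0.09 to 0.056 for LARS2, -0.46 to 0.22 for MARS2, -0.75 to 0.23 for NARS2, -0.71 to 0.20 for PARS2, -1.07 to 0.021 for RARS2 and -0.22 to 1.29 for WARS2. By the library left out, the direction turned for 15 members without control B and 1 without control A. It turned for 2 without knockout A and 1 without knockout B. The cause was not tested. No paired analysis was possible because the recovered libraries carry no replicate numbers.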
